A study of Anser cygnoides with 4 samples.

Results

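PAX7 and PAX3 are the paired-box transcription factors that mark satellite cells and their embryonic progenitors, and their transcripts were followed here through goose leg muscle. They were found by symbol and are 2 of the 25487 genes in the count tables. Skeletal muscle satellite cells (SMSCs) had been isolated from leg muscle of female Zhedong White goose (Anser cygnoides) embryos at embryonic day 13 (E13), E15, E18 and E23, with several embryos pooled per stage, digestion with dispase and collagenase, differential plating, and freezing in liquid nitrogen before thawing. Each stage gave 1 droplet library read from the 3′ end of transcripts, with unique molecular identifiers (UMIs) to count molecules. The labels name no treatment, the libraries differed in age, and a stage difference cannot be told apart from a difference between preparations. For this reason levels at different stages were described without a test, and tests were run within libraries, between groups of cells of the same pool.

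PAX7 and PAX3 are close paralogs, each with a paired domain and a homeodomain that bind DNA. In mice, PAX3 acts first, in the somite and in the progenitors that migrate into the limb, and PAX7 takes over in fetal muscle and is needed to maintain satellite cells after birth. Both act upstream of MYF5 and MYOD1, which commit a cell to the myogenic lineage, and both are turned down as MYOG, the factor of terminal differentiation, comes on.

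The 4 libraries held 11261 to 16077 cell barcodes and 128674910 to 155367545 UMIs, and 9960 to 13831 cells per library (44361 in all) remained after the limits on cells and the removal of likely doublets. The median depth of the kept cells was 7922 UMIs at E13 and 9883, 9991 and 10603 at the later stages. Between 27 and 56 barcodes were shared by any pair of libraries. Cells were placed in groups by their own raw UMIs. FAPs (fibro-adipogenic progenitors) had at least 5 UMIs of each of DCN and COL6A3 and no MYOG, immune, endothelial, cartilage and glial cells were set apart by markers, and the other 8023 to 11826 cells per library were sorted by MYOD1 (0, 1-2 or 3+ UMIs) and MYOG (0, 1 or 2+ UMIs). The label of the samples as SMSCs was set beside markers. The satellite cell markers PAX7, MYF5, CDH15 and CALCR were all detected in cells with 3 or more MYOD1 UMIs and no MYOG. They were detected in FAPs too, so detection alone does not check the label. Their whole list summed to 1393, 3445, 2103 and 2469 CPM in the former at E13, E15, E18 and E23. In FAPs it summed to 35.0, 42.4, 77.1 and 230 CPM. PAX7, a gene under study, is in that list, so the sums are no independent check. FAPs made up 5.88% to 16.9% of kept cells, and cells with 2 or more MYOG UMIs 13.3% to 51.5%.

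Taken over all cells, PAX7 was lowest at E13 and highest at E15, and PAX3 had the same lowest and highest library. Over all kept cells PAX7 stood at 127 CPM (counts per 1000000 UMIs of the summed cells) at E13 (95% interval 125 to 129), 335 at E15 (331 to 338), 214 at E18 (212 to 217) and 317 at E23 (314 to 321). PAX3 stood at 13.3 CPM (12.6 to 13.9), 28.4 (27.4 to 29.4), 21.2 (20.4 to 22.0) and 16.2 (15.5 to 17.0). No intervals overlapped between libraries, but all intervals in the text cover counting error only and hold nothing of the spread between embryos. After E18 the genes moved apart over all kept cells. The log2 ratio of E23 over E18 was 0.57 for PAX7 (0.54 to 0.59) and -0.39 for PAX3 (-0.48 to -0.30). With the 3′ tags used here, levels of PAX7 and PAX3 were compared only each with itself, since counts of different genes do not share a scale.

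Much of this pattern was seen within cells that had MYOD1 and no MYOG, a group that made up 37.5%, 23.7%, 23.6% and 33.7% of kept cells at E13, E15, E18 and E23. There PAX7 stood at 246, 686, 473 and 516 CPM. PAX3 stood at 22.2, 67.4, 49.8 and 26.1 CPM. From E13 to E15 PAX7 was 2.78-fold and PAX3 3.04-fold higher, on log2 ratios of 1.48 (1.44 to 1.51) and 1.60 (1.49 to 1.72). From E18 to E23 the log2 ratio was -0.93 for PAX3 (-1.05 to -0.81) and 0.13 for PAX7 (0.09 to 0.16). When each cell was thinned to 4000 UMIs, the share of these cells with at least 1 PAX7 UMI was 49.8%, 83.9%, 72.7% and 69.0%, and with a PAX3 UMI 6.50%, 13.8%, 10.8% and 6.22%. Before thinning, which left out the 130 to 339 cells per library with fewer UMIs, the shares were 64.7%, 92.4%, 87.1% and 82.0% for PAX7 and 11.4%, 22.0%, 17.0% and 11.5% for PAX3. Immune cells, which should lack both genes and show the background from free RNA, had a PAX7 UMI at 4000 UMIs in 2 of 43, 1 of 10, 0 of 72 and 2 of 155 cells and a PAX3 UMI in 1 of 72 cells at E18 and in 0 cells of the other libraries, where a count of 0 allows up to 6.98% at E13 and 1.94% at E23. The median depth was 4460 to 6410 UMIs in immune cells and 7680 to 10755 in the cells with MYOD1 and no MYOG, and at E15 10 immune cells were too few to bound PAX3. For PAX7 the share was lower at E23 than at E18 while the CPM was higher, and for PAX3 the share was lower at E23 than at E13 while the CPM was higher, so no order was read between those libraries. Cells with 2 or more MYOG UMIs differed, with both genes highest at E23 by CPM. There PAX7 stood at 85.4, 205, 152 and 342 CPM and PAX3 at 13.0, 14.2, 9.31 and 21.2 CPM. From E18 to E23 both were higher there, by log2 ratios of 1.17 and 1.19. The share of those cells with a PAX3 UMI at 4000 UMIs was 4.15%, 4.13%, 2.71% and 4.11%, not highest at E23.

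**Figure D1:**
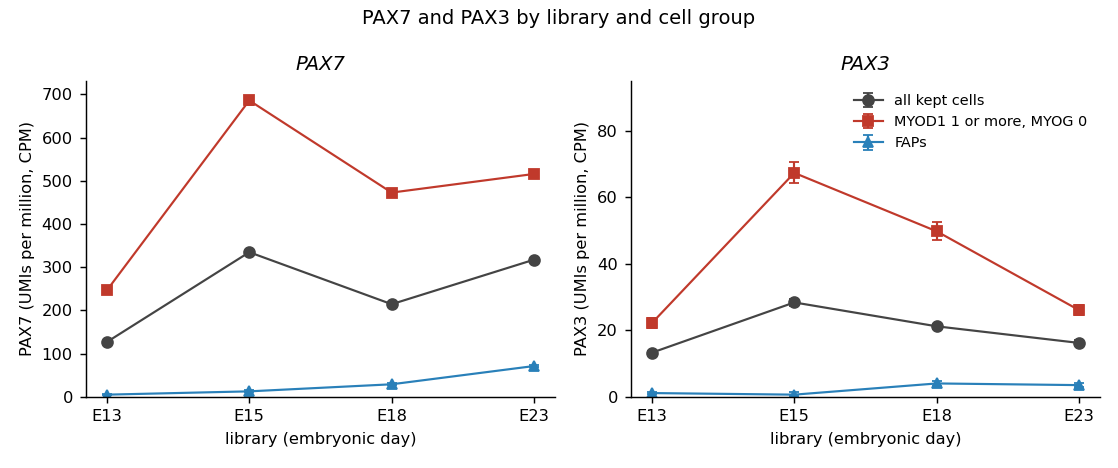
Levels of PAX7 (left) and PAX3 (right) in CPM by library, in all kept cells (circles), in cells with MYOD1 and no MYOG (squares) and in FAPs (triangles), with 95% Poisson intervals. Both genes were highest at E15 in all kept cells and in cells with MYOD1 and no MYOG. In the latter PAX7 stood at 516 CPM and PAX3 at 26.1 CPM at E23.

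The E13 library stood apart in oxidative stress genes, and within it PAX7 and PAX3 were lower in cells with more of them. Of its cells with MYOD1 and no MYOG, 74.7% had 5 or more UMIs, of 4000, of HMOX1, SLC7A11 and OSGIN1 summed, whereas 89.8% to 94.7% of such cells had 0-1 in the later libraries. In the E13 cells with 5 or more, PAX7 stood at 215 CPM and PAX3 at 19.8 CPM. In the 380 E13 cells with 0-1, PAX7 stood at 310 CPM and PAX3 at 42.1 CPM. Cells with 0-1 held PAX7 at 716, 492 and 534 CPM at E15, E18 and E23, all above E13. They held PAX3 at 66.3, 52.6 and 26.7 CPM, so that E13 lay above E23 for PAX3 within these cells and below it over all cells with MYOD1 and no MYOG. In the later libraries PAX7 also stood lower with more such UMIs, by little at E15 and E18, while PAX3 did not share 1 direction. In cells with 2-4 such UMIs (155, 109 and 283 cells at E15, E18 and E23) PAX7 stood at 689, 489 and 413 CPM. PAX3 stood there at 95.2, 50.5 and 13.3 CPM, higher than with 0-1 at E15 and lower at E23. The 43 E23 cells with 5 or more held PAX7 at 134 CPM and PAX3 at 17.4 CPM. The part of the stress genes in the difference between libraries was not tested.

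PAX3 was detected in few cells but unevenly among them. At 4000 UMIs per cell, 7.78% of the E15 cells with MYOD1 and no MYOG had 1 PAX3 UMI, 3.32% had 2, 1.81% had 3-4 and 0.928% had 5 or more, and the highest cell had 14. The Fano factor, the variance of the UMI count over cells divided by its mean, was 1.84, 3.23, 3.14 and 2.44 for PAX3 in these cells at E13, E15, E18 and E23. For PAX7, whose mean was 0.947 to 2.85 UMIs per cell against 0.0890 to 0.272 for PAX3, it was 1.77, 2.33, 2.13 and 2.75. Poisson counting alone gives 1, and both genes exceeded it in every library. At E15 20.7% of these cells had 5 or more PAX7 UMIs, compared with 2.46% at E13, 10.6% at E18 and 13.3% at E23.

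**Figure D2:**
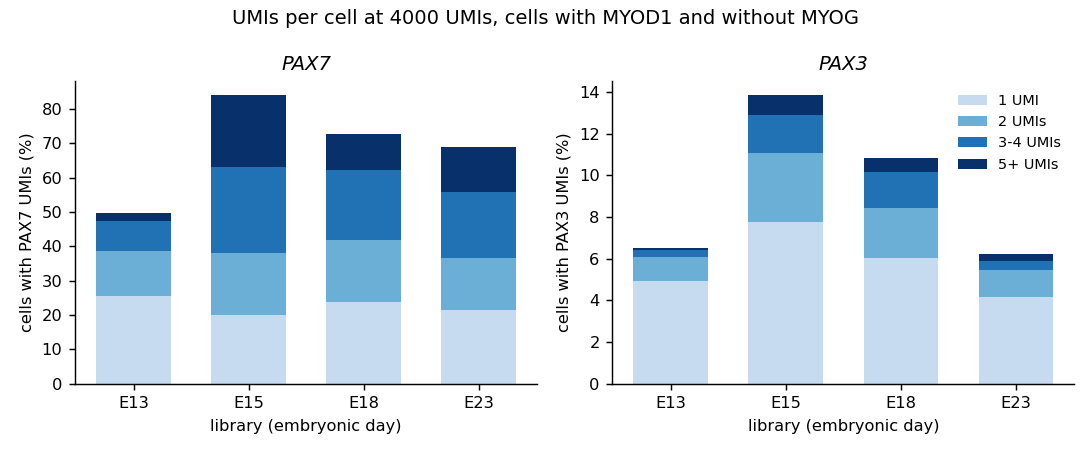
Share of cells (%) with 1, 2, 3-4 and 5 or more UMIs of PAX7 (left) and PAX3 (right), stacked, among cells with MYOD1 and no MYOG thinned to 4000 UMIs, by library. The full bar is the share with any UMI, 83.9% for PAX7 and 13.8% for PAX3 at E15.

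The UMIs of both genes came mostly from cells without MYOG. Cells with 3 or more MYOD1 UMIs and no MYOG made up 27.0%, 18.2%, 14.9% and 19.8% of kept cells and held 55.2%, 37.0%, 31.9% and 36.1% of the PAX7 UMIs at E13, E15, E18 and E23. They held 44.3%, 39.1%, 30.7% and 36.3% of the PAX3 UMIs. At E15 the cells with 3 or more MYOD1 and 2 or more MYOG UMIs were 48.5% of all cells and held 28.8% of the PAX7 and 23.7% of the PAX3 UMIs, which were the highest shares for that group in the 4 libraries. Cells with neither MYOD1 nor MYOG held 8.25% and 7.40% of PAX7 UMIs at E13 and E15 and 21.5% and 22.4% at E18 and E23. These cells were 15.4%, 7.43%, 21.4% and 26.5% of kept cells at the 4 stages. Their PAX7 share was thus near their share of cells at E15 and E18 and below it at E13 and E23.

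Both genes were higher in cells with a little MYOD1, the factor that commits satellite cells to differentiation, than in cells with none. Among cells without MYOG, PAX7 stood at 83.6 CPM in cells with 0 MYOD1 UMIs and 172 in cells with 1-2 at E13, 469 and 644 at E15, 254 and 439 at E18, and 294 and 443 at E23. PAX3 stood at 9.73 and 20.3 CPM at E13, 46.0 and 86.2 at E15, 29.2 and 55.1 at E18, and 14.1 and 21.7 at E23. Within every library the cells with 1-2 MYOD1 UMIs lay higher for both genes, while the groups overlapped across libraries. By edgeR's quasi-likelihood test on the summed counts of 4 libraries, with the library as a block, PAX7 was higher by a log2 fold change of 0.75 (SE 0.094, adjusted p = 0.0033) and PAX3 by 0.90 (SE 0.089, adjusted p = 0.0014), both in 4 of 4 libraries. Of 13234 genes tested, 10.3% were called, 4.61% higher and 5.71% lower. Across all comparisons p-values measured the spread, over 4 libraries that are pools of different ages, of the difference between groups within a library.

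Other cells were mixed into this contrast. The cells with no MYOD1 UMI held FAP markers at 1380, 1477, 1350 and 1096 CPM, compared with 762, 1056, 846 and 843 in cells with 1-2 MYOD1 UMIs, and 4 of the 5 FAP markers tested were lower with MYOD1. Of 4 immune markers 2 were lower (median log2 fold change -1.32), and of 3 pericyte markers 2 were lower (median -0.999), and their part in the result was not tested. In cells with 0 UMIs of DCN, PAX7 and PAX3 were higher by 0.37 (adjusted p = 0.0026) and 0.52 (adjusted p = 0.021). In cells with fewer than 1000 CPM of FAP markers, an alternative chosen after seeing the data, PAX7 and PAX3 were still higher by 0.39 and 0.82 and stayed called. In cells with at least 1 UMI of MYF5, also chosen after seeing the data, the changes were 0.13 (adjusted p = 0.14) and 0.27 (adjusted p = 0.17), and neither was called. Median depth also differed, from 6683, 6913, 9309 and 10250 UMIs in cells with 0 MYOD1 UMIs to 7100, 8486, 9584 and 10700 in cells with 1-2. When cells were thinned to 4000 UMIs before sorting, the changes were 1.11 and 1.08 and both stayed called. That thinning also moved cells between groups. FAPs numbered 391, 298, 281 and 424 at E13, E15, E18 and E23 instead of 1819, 610, 1547 and 1688. Cells with neither MYOD1 nor MYOG numbered 4070, 1481, 4021 and 4531 instead of 2126, 770, 2181 and 2641. Depth and the mixture of cells thus changed together, and their parts were not told apart.

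Most partners of PAX7 and PAX3 that were called in this comparison were higher too. Of the 10 homeobox partners and upstream factors, 5 were higher and 1 was lower, on a median log2 fold change of 0.47 against 0.01 over all genes tested. Of all genes tested 4.61% were higher and 5.71% lower. In cells with MYF5 122 genes were called instead of 1365, and the lists were not counted there. EYA1 and EYA2, transcriptional cofactors that act upstream of PAX3 in mice, were higher by 0.72 and 0.69. MEOX2, a homeobox gene of limb mesenchyme and muscle, fell by 2.89 on the log2 scale. MEOX2 was also higher in FAPs, whose markers were higher in the cells with no MYOD1 UMI. The part of FAPs in these list counts was not tested. Of 12 receptor and adhesion genes, 11 were tested, 7 were higher and 1 was lower, with FGFR4, the fibroblast growth factor receptor that is a target of PAX3 in mice, higher by 0.91, CALCR, the calcitonin receptor, by 0.80, and MET, which guides limb progenitors in mice and is a target of PAX3 there, by 0.56. The 7 cofactors of PAX proteins, among them PAXBP1, which links PAX proteins to histone methylation in mice, lay between -0.04 (ASH2L) and 0.19 (CARM1, adjusted p = 0.44, the lowest of the 7).

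From 1-2 to 3 or more MYOD1 UMIs neither gene passed the test in edgeR. PAX7 stood at 172 and 272 CPM at E13, 644 and 697 at E15, 439 and 492 at E18, and 443 and 565 at E23, higher in 4 of 4 libraries. Its log2 fold change of 0.32 (SE 0.079) missed the threshold in edgeR (adjusted p = 0.065), passed it with DESeq2 (adjusted p = 0.010) and passed it in edgeR without the filter on low counts (adjusted p = 0.0018). When cells were thinned to 4000 UMIs before sorting it was 0.10 (adjusted p = 0.48), with a log2 ratio of -0.07 at E18. In cells with 0 UMIs of DCN it was 0.19 (adjusted p = 0.44), with log2 ratios of -0.07 at E15 and -0.03 at E18, so PAX7 was not higher in 4 of 4 libraries under these settings. PAX3 stood at 20.3 and 22.8 CPM at E13, 86.2 and 62.5 at E15, 55.1 and 46.7 at E18, and 21.7 and 29.0 at E23. PAX3 thus lay lower with more MYOD1 at E15 and E18 and higher at E23, and its log2 fold change of -0.04 was far from the threshold (adjusted p = 0.93). With cells thinned before sorting, the PAX3 log2 ratios at E13, E15, E18 and E23 were -0.14, -0.31, -0.37 and -0.10, all below 0. The thinned intervals at E13 (-0.43 to 0.14) and E23 (-0.45 to 0.26) took in 0. With FAP markers under 1000 CPM the E23 ratio was 0.13 (-0.10 to 0.36). The opposite directions stayed with DCN at 0 UMIs, at -1.02, -0.42 and 0.52 at E15, E18 and E23. In cells with MYF5 they stayed at -0.38, -0.42 and 0.29. Of 13280 genes 4.22% were called, 1.94% higher and 2.27% lower, among them EYA1, EYA2, FGFR4 and CALCR, all higher. The sums for 1-2 MYOD1 UMIs served in both MYOD1 comparisons, and those for 3 or more with no MYOG in the first MYOG comparison as well.

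**Figure D3:**
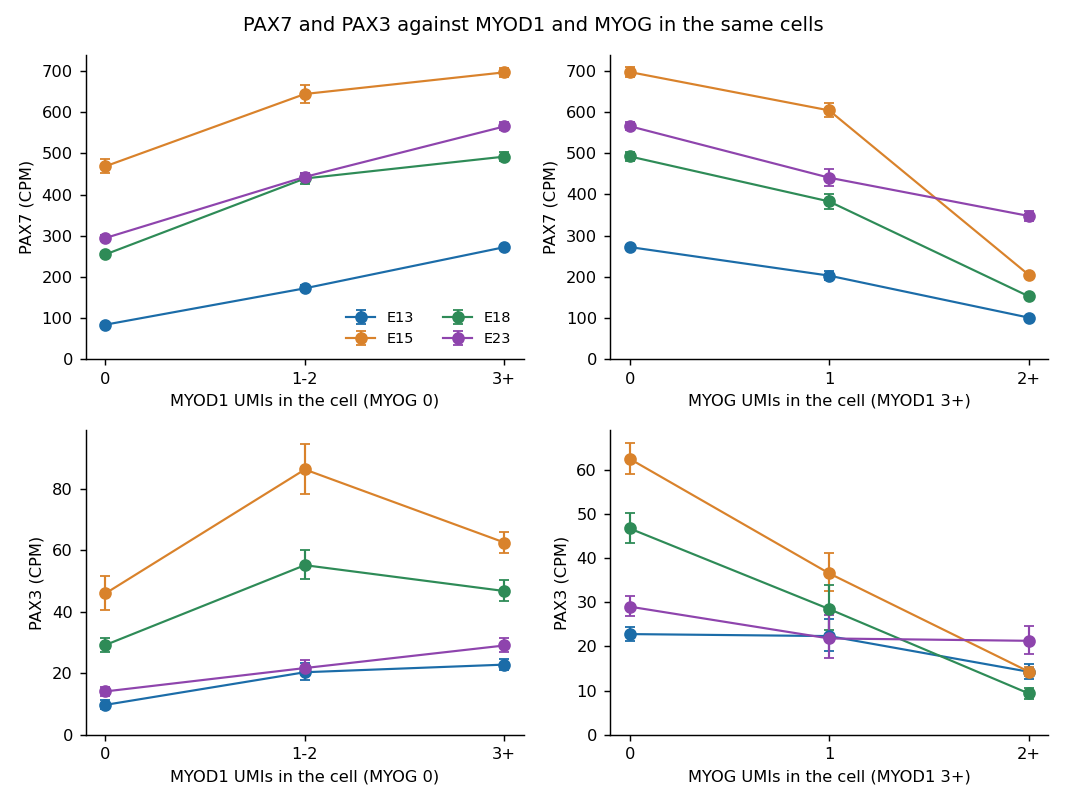
Levels (CPM, 95% Poisson intervals) of PAX7 (top) and PAX3 (bottom) by MYOD1 UMIs in cells without MYOG (left) and by MYOG UMIs in cells with 3 or more MYOD1 UMIs (right), 1 line per library. PAX7 was higher along MYOD1 and lower along MYOG in every library, whereas at E15 PAX3 stood at 46.0, 86.2 and 62.5 CPM along MYOD1.

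MYOG, which drives terminal differentiation, was accompanied by lower PAX7 and PAX3. Among cells with 3 or more MYOD1 UMIs, PAX7 stood at 272 CPM with 0 MYOG UMIs and 203 with 1 at E13, 697 and 604 at E15, 492 and 383 at E18, and 565 and 440 at E23. PAX3 stood at 22.8 and 22.4 CPM, 62.5 and 36.6, 46.7 and 28.5, and 29.0 and 21.8. PAX7 was lower with 1 MYOG UMI in 4 of 4 libraries, and PAX3 was too, though at E13 by a log2 ratio of only -0.03 (-0.29 to 0.22). In edgeR PAX7 fell by 0.34 on the log2 scale (SE 0.054, adjusted p = 0.0055) and PAX3 by 0.50 (SE 0.12, adjusted p = 0.035). Of 12795 genes 9.07% were called, 5.27% higher and 3.81% lower.

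These calls leaned on single libraries, more so for PAX3. Without E18 the adjusted p of PAX7 was 0.053. For PAX3 it was 0.11 without E15, 0.19 without E18 and 0.068 without E23. FAP markers fell with the members in this comparison too, 3 of 5 being called lower, and in cells with fewer than 1000 CPM of FAP markers the adjusted p of PAX3 was 0.091. The call of PAX3 was also lost with cells thinned before sorting (adjusted p = 0.15) and in cells with MYF5 (adjusted p = 0.11).

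From 1 to 2 or more MYOG UMIs the drop was larger. PAX7 stood at 203 and 101 CPM at E13, 604 and 205 at E15, 383 and 153 at E18, and 440 and 348 at E23. PAX3 stood at 22.4 and 14.3 CPM, 36.6 and 14.3, 28.5 and 9.38, and 21.8 and 21.3. The log2 ratios were -1.01, -1.56, -1.33 and -0.34 for PAX7 and -0.65, -1.35, -1.60 and -0.04 for PAX3, so that as first sorted E23 held the smallest drop for each gene and the PAX3 interval at E23 (-0.42 to 0.36) took in 0. With cells thinned before sorting, PAX3 gave -0.64 at E13 and -0.65 at E23, and PAX7 -0.60 and -0.46. The thinned PAX3 value at E23 rested on 26 and 25 UMIs, and its interval (-1.50 to 0.21) took in 0. It is too wide to say whether the PAX3 drop at E23 was smaller than at E13. In edgeR PAX7 fell by 0.99 on the log2 scale (SE 0.19, adjusted p = 0.018) and PAX3 by 0.86 (SE 0.25, adjusted p = 0.049). This comparison called 28.1% of 12171 genes, 14.4% higher and 13.7% lower, so the background was high, and its sums for 1 MYOG UMI are those of the comparison before. FAP markers were lower too, 4 of 4 tested (median log2 fold change -1.46), standing at 405 and 143 CPM at E13, 703 and 185 at E15, 364 and 117 at E18, and 520 and 291 at E23, and their part in the result was not tested.

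Leaving out libraries ended these calls as well. Without E13 no gene was called by edgeR, although 4365 had an unadjusted p under 0.05 and DESeq2 called 1927, and the adjusted p was 0.068 for PAX7 and 0.12 for PAX3. Without E18 no gene was called by edgeR either, with 3889 at an unadjusted p under 0.05 and 1491 called by DESeq2, and the adjusted p was 0.091 for PAX7 and 0.17 for PAX3. Without E15 PAX7 stayed called and PAX3 did not (adjusted p = 0.13). PAX3 also missed the threshold in cells with 0 UMIs of DCN (adjusted p = 0.061) and in cells with MYF5 (adjusted p = 0.080), while PAX7 stayed called in both.

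Named genes around PAX7 and PAX3 moved in both directions along MYOG. EYA1 rose by 0.82, EYA4 by 0.80 and MEF2C, a MADS-box partner of the myogenic factors, by 1.496, from 1 to 2 or more MYOG UMIs. LBX1, a homeobox gene of migrating limb progenitors, fell by 0.45, FGFR4 by 0.40 and MET by 1.47. Of 10 homeobox partners and upstream factors tested, 2 were higher and 2 lower. Of 11 receptor and adhesion genes tested, 2 were higher and 5 lower. Of 8 Notch pathway genes tested, 4 were higher and 3 lower, where 28.1% of all genes were called, 14.4% higher and 13.7% lower. HEY1, a Notch target, fell by 1.63 while the ligand JAG2 rose by 1.41.

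**Figure D4:**
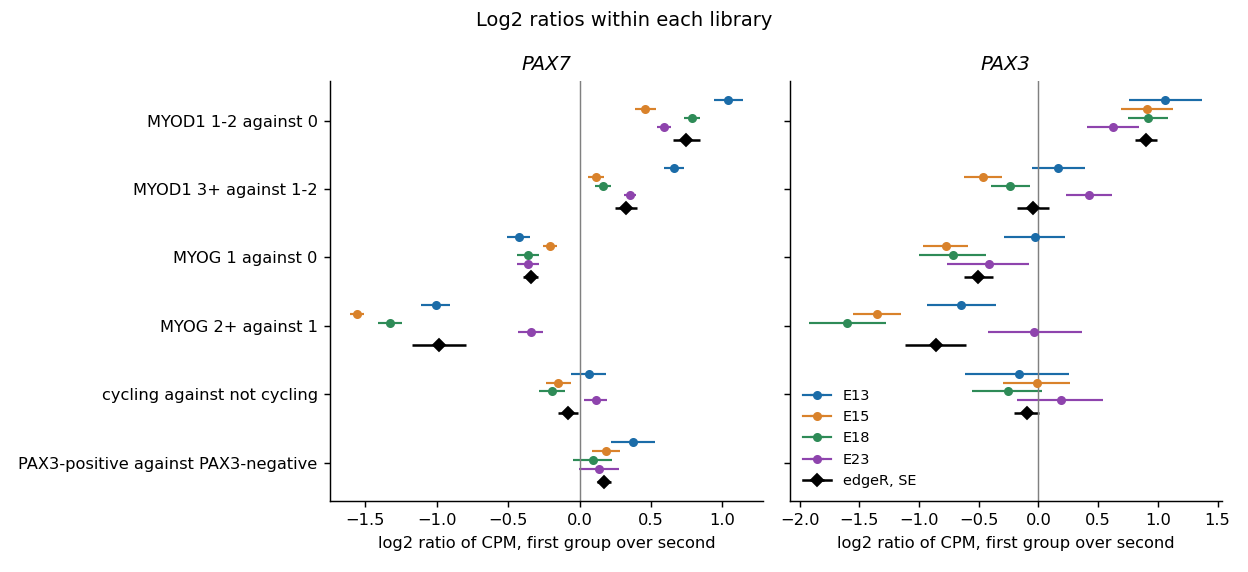
Log2 ratios of CPM, first group over second, within each library (coloured points, 95% Poisson intervals; for the cycling and PAX3 comparisons the cells were thinned to 4000 UMIs) and the edgeR estimate with its SE (black diamonds), for PAX7 (left) and PAX3 (right). For MYOG 2+ against 1 the E23 points (-0.34 and -0.04) lie nearest to 0, and PAX3 has no value against itself.

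FAPs, the connective tissue progenitors of muscle, held less of both genes than cells with MYOD1 and no MYOG. PAX7 stood at 4.95, 12.6, 29.0 and 71.2 CPM in FAPs at E13, E15, E18 and E23, and PAX3 at 1.12, 0.643, 4.01 and 3.51 CPM. Both lay far below the levels in cells with MYOD1 and no MYOG in every library, with no overlap between the groups. In edgeR PAX7 fell by 4.43 on the log2 scale (SE 0.59, adjusted p = 0.0043) and PAX3 by 3.98 (SE 0.55, adjusted p = 0.0048), in 4 of 4 libraries. The groups differed in 42.4% of 14002 genes, 21.9% higher and 20.5% lower in FAPs. FAPs were chosen for the lack of MYOG and at most 1 MYOD1 UMI, and in the tested lists 8 of 11 receptor and adhesion genes and 7 of 10 homeobox partners were lower in them as well, while MEOX2 was higher by 4.69.

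PAX7 in FAPs stood highest at E23, and it was gathered in a subset of cells. With cells thinned to 4000 UMIs before sorting, FAPs held 5, 3, 3 and 44 PAX7 UMIs, or 3.20, 2.52, 2.67 and 25.9 CPM at E13, E15, E18 and E23. The steps up at E15 and E18 were not seen under this thinning, which also changed which cells passed as FAPs. They numbered 391, 298, 281 and 424 instead of 1819, 610, 1547 and 1688. As first sorted, FAPs with 3 or more PAX7 UMIs held DCN, 1 of the 2 sorting genes, at 643, 605, 567 and 672 CPM. FAPs without PAX7 held it at 1103, 1355, 1546 and 2030 CPM. The thinned levels thus cannot show the effect of depth alone. The share of FAPs, as first sorted, with a PAX7 UMI at 4000 UMIs was 1.43%, 2.84%, 6.72% and 14.6% at the 4 stages. Immune cells had shares of 4.65%, 10.0%, 0% and 1.29%. At E13 and E15 they were too few to set a background (intervals 0.568% to 15.8% and 0.253% to 44.5%), so nothing was read from the FAP shares there, and at E18 a count of 0 of 72 immune cells allows up to 4.17%. Median depths before thinning were 14600 to 19386 UMIs in FAPs and 4460 to 6410 in immune cells. Of 105 cartilage cells at E13, 0 had a PAX7 UMI at 4000 UMIs, which allows up to 2.86%. Endothelial cells, only 16, 26 and 58 at E13, E18 and E23, held PAX7 at 58.8, 56.7 and 153 CPM, above FAPs by CPM. Those levels rested on 13, 14 and 85 UMIs. At E15 10 endothelial cells held 0 PAX7 UMIs. The endothelial share with a PAX7 UMI at 4000 UMIs was 18.8% (4.05% to 45.6%) at E13 and 4% (0.101% to 20.4%) at E18. At E23 that share was 12.2% (4.63% to 24.8%). By share, endothelial cells were thus not above FAPs at E18 and E23. FAPs with 3 or more PAX7 UMIs were 0.935%, 2.13%, 6.53% and 14.4% of all FAPs. They held MYF5, a myogenic factor, at 187, 58.7, 115 and 171 CPM, compared with 7.21, 2.63, 2.99 and 4.81 in FAPs without PAX7. They held PDGFRA, a defining receptor of FAPs, at 22.4, 13.6, 5.62 and 3.67 CPM, compared with 57.5, 74.8, 92.9 and 66.8. Their median depth was 15191 to 16053 UMIs, compared with 14572 to 19815 in FAPs without PAX7. In FAPs with neither a MYOD1 nor a MYF5 UMI, a group chosen after seeing the data, PAX7 stood at 1.79, 5.66, 8.62 and 20.9 CPM.

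Neither gene passed the test between proliferating and other cells. Cycling cells were those with UMIs of at least 2 of 6 cell cycle genes at 4000 UMIs, and they made up 13.1%, 22.3%, 33.0% and 25.4% of cells with MYOD1 and no MYOG. PAX7 stood at 246 CPM in cycling and 235 in other cells at E13, 657 and 728 at E15, 448 and 512 at E18, and 548 and 507 at E23. PAX3 stood at 20.1 and 22.6 CPM, 67.5 and 68.1, 46.2 and 55.2, and 28.0 and 24.5. By CPM PAX7 was thus lower in cycling cells at E15 and E18 and higher at E23. The PAX7 interval at E13 (log2 ratio -0.06 to 0.19) and the PAX3 intervals of every library took in 0, so no direction was read there. The share of cells with a PAX7 UMI was not lower in cycling cells, at 83.9% in both groups at E15 and 73.4% and 72.4% at E18. The log2 fold changes in edgeR were -0.08 for PAX7 (SE 0.068, adjusted p = 0.45) and -0.10 for PAX3 (SE 0.10, adjusted p = 0.56), where 20.2% of 11309 genes were called, 9.3% higher and 10.9% lower.

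Cells with a PAX3 UMI more often had a PAX7 UMI when all cells in no other class were taken. At 4000 UMIs PAX7 was detected in 50.2% of PAX3-positive and 34.2% of PAX3-negative cells at E13, 70.7% and 51.5% at E15, 65.7% and 47.3% at E18, and 71.7% and 56.9% at E23. The odds ratios were 1.94, 2.28, 2.13 and 1.92. Within the cells with MYOD1 and no MYOG they were 1.43 (1.13 to 1.80) at E13, 0.884 (0.645 to 1.21) at E15, 0.963 (0.717 to 1.29) at E18 and 1.58 (1.12 to 2.22) at E23. There the interval lay above 1 at E13 and E23 and took in 1 at E15 and E18. Pooled over the 9 bins of MYOD1 and MYOG the odds ratios were 1.67, 1.42, 1.501 and 1.72. The bins differed, with 3.72, 1.65, 2.65 and 2.12 in cells with neither MYOD1 nor MYOG. With 3 or more MYOD1 UMIs they were 1.61, 0.902, 0.809 and 1.24 without MYOG and 1.30, 1.66, 1.26 and 1.66 with 2 or more MYOG UMIs. These odds ratios describe the cells of 1 library each, and cells of a library are not replicates.

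**Figure D5:**
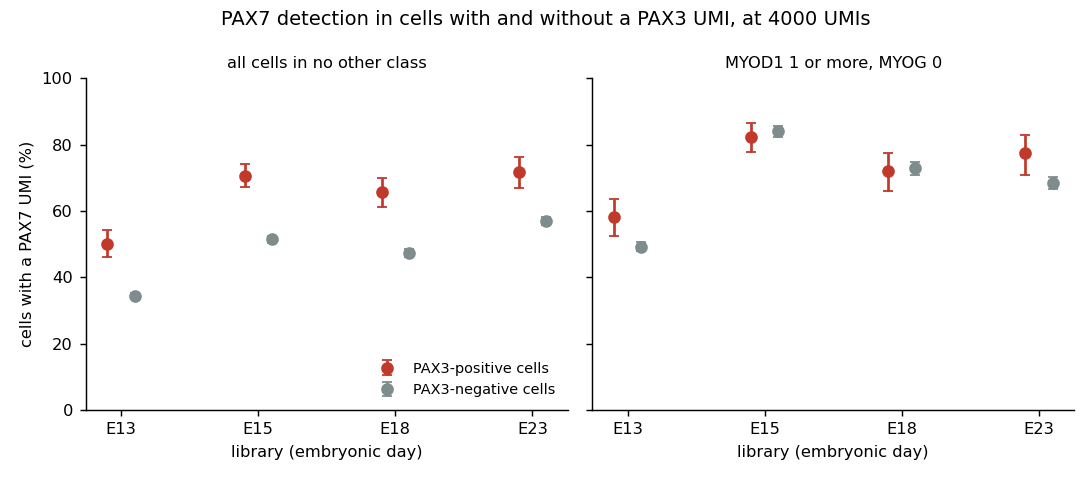
Share of cells (%) with at least 1 PAX7 UMI among PAX3-positive (red) and PAX3-negative (grey) cells thinned to 4000 UMIs, by library, with 95% exact binomial intervals, in all cells in no other class (left) and in cells with MYOD1 and no MYOG (right). At left the PAX3-positive cells are higher in every library (50.2% and 34.2% at E13), and at right the shares at E15 and E18 overlap.

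At E13 the level of each gene rose along the UMIs of the other. The later libraries held no such steady order in both directions, but groups with many PAX3 UMIs were small. Among E13 cells with MYOD1 and no MYOG, PAX7 stood at 232, 281, 327, 467 and 500 CPM in cells with 0, 1, 2, 3-4 and 5 or more PAX3 UMIs. The groups with 3-4 and 5 or more held 15 and 5 cells. In the same E13 cells sorted by PAX7, PAX3 stood at 16.4, 22.1, 31.1, 37.5 and 42.0 CPM. At E18 PAX7 stood at 487, 524, 509, 455 and 683 CPM along PAX3, with 39 and 15 cells in the groups with 3-4 and 5 or more. At E15 PAX3 stood at 75.5, 60.3, 55.9, 64.5 and 84.2 CPM along PAX7. At E23 PAX7 stood at 514, 556, 640, 433 and 575 CPM along PAX3, with 15 and 10 cells in the groups with 3-4 and 5 or more. With so few cells, no difference between E13 and E18 or E23 was read from the order along PAX3. The level of PAX7 in PAX3-positive against PAX3-negative cells was 302 and 232 CPM at E13, 796 and 699 at E15, 519 and 487 at E18, and 565 and 514 at E23.

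PAX7 was higher in PAX3-positive cells in 4 of 4 libraries, and the difference missed the threshold. The log2 fold change in edgeR was 0.17 (SE 0.049, adjusted p = 0.070). It was 0.19 without TMM factors (adjusted p = 0.030) and 0.36 when cells with any MYOD1 count were taken (adjusted p = 0.00029), both past the threshold. Of 11305 genes 1.95% were called, 0.938% higher and 1.01% lower, PAX3 itself among them.

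Regulators were among the genes of the fixed lists that were higher in PAX3-positive cells, with 1 of 7 Notch pathway genes called. TCF15 (0.37), a bHLH factor of somites, ID1 (0.19) and ID3 (0.33), which block MYOD1-type factors, HEY1 (0.25), MKI67 (0.31) and TOP2A (0.28) were higher by edgeR. Of 6 cell cycle genes tested only 2, MKI67 and TOP2A, were called (median of the 6 0.16). PAX3 itself did not pass the test between cycling and other cells. ACTC1 (-1.19) and MYL1 (-2.05), both of the sarcomere, were lower. Of the FAP markers, COL1A2 was higher (0.29) and DCN lower (-0.31). MYF5 (-0.18) and LBX1 (-0.42) were not called. The largest increases among genes with at least 10 CPM and a shared direction in 4 libraries were PRIMA1 (1.22, which anchors acetylcholinesterase), RARRES1 (1.21), LOC106034203 (1.18), ADGRV1 (1.16, an adhesion receptor) and IRX3 (1.07, an Iroquois homeobox factor). The largest decreases were LOC125179675 (-2.39), MYL1, TNNC1 (-2.04), ACTN2 (-1.70) and TNNT3 (-1.55), the last 3 of the sarcomere. All 10 were also called in a second random thinning of the same cells, an alternative chosen after seeing the data. That draw is not independent of the first. It called 235 genes other than PAX3 against 219 in the first, with 157 called in both.

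The genes whose profile was most like that of PAX7 over 40 profiles, 10 cell groups in 4 libraries, were CYS1 (Pearson r = 0.969, a protein of the primary cilium), PDGFC (0.969), a platelet-derived growth factor, ST6GAL2 (0.960), C1QTNF3 (0.956) and SIX2 (0.956), a homeobox factor. For PAX3 they were TRPC6 (0.938), a calcium-permeable channel, LOC106048322 (0.937), MSC (0.936), also known as musculin and MyoR, a bHLH repressor, PDGFC (0.935) and SLCO5A1 (0.933). The correlation of PAX7 with PAX3 was 0.910, and 6979 genes were ranked. The profiles share libraries and cells and are not independent, so these are descriptions without a test.

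The other paired-box genes measured were at low levels. PAX9 stood at 1.46, 0.765, 0.999 and 0.604 CPM over all kept cells at the 4 stages, and PAX1, PAX2, PAX5 and PAX6 were below 1 CPM in each library. PAX4 had 0 UMIs in all 4 libraries, which allows a level of up to 0.0240 to 0.0270 CPM. At E18 PAX5, a factor of B cells, had 57 UMIs in 7 cells.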

How the data were processed

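UMI counts, as deposited, were made by the authors with Cell Ranger (7.1.0 in the submitters' notes, 9.0.0 in the file headers) and are not normalized. All titles write day 13, so stages were taken from the age field. The sources differ on how many embryos were pooled. All 25487 gene symbols matched a RefSeq gene table, whose assembly may differ from the one used for counting, so no coordinates are given.

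The study's limits on cells were applied (genes between 300.0 and 6500, UMIs between 1000 and 50000, mitochondrial share up to 20%). The cells with the highest scrublet doublet scores (scanpy 1.11.5), up to 0.8% per 1000 barcodes, were removed (986 to 2041 per library). Counts were summed per library and cell group and tested with edgeR 4.0.16 (quasi-likelihood, TMM, filterByExpr, library block, Benjamini-Hochberg over all genes, threshold 0.05, two-sided). The code was run on simulated sums with the same group difference in every library. That run does not cover group differences that vary between libraries. The block was used because both groups of a library come from 1 pool. DESeq2 1.42.0, other scalings, filters and depths, and leaving out each library were alternatives. CPM came from summed counts, with exact Poisson intervals, and shares had exact binomial ones. Likeness was Pearson's r of log2(CPM + 10) centred within library, for genes with at least 20 CPM. Genes were named by fixed lists, by likeness (5 per member) and, in PAX3-positive cells, by the 5 highest and 5 lowest changes with at least 10 CPM. The members and lists were chosen with earlier results of these data known. Some genes of the lists are not reported here.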

Additional observations from a re-analysis of the deposited data

Results flagged for a closer look

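PAX3 moved in opposite directions between libraries when cells with 3 or more MYOD1 UMIs were set against cells with 1-2, among cells without MYOG. The log2 ratio was 0.42 at E23 and -0.4646 and -0.2385 at E15 and E18, with each interval on 1 side of 0. With cells thinned to 4000 UMIs before sorting the 4 ratios were all below 0, from -0.37 (E18) to -0.10 (E23). The thinned intervals at E13 (-0.43 to 0.14) and E23 (-0.45 to 0.26) took in 0. With FAP markers under 1000 CPM E23 stood at 0.13 (-0.10 to 0.36). The opposite directions stayed with DCN at 0 UMIs, at -1.02, -0.42 and 0.52 at E15, E18 and E23. In cells with MYF5 they stayed at -0.38, -0.42 and 0.29. Each of these intervals with DCN at 0 or with MYF5 lay on 1 side of 0. PAX7 moved in opposite directions between cycling and other cells, with 0.112 at E23 and -0.1491 and -0.1935 at E15 and E18. In cells with MYF5 the E23 ratio was 0.067 (-0.022 to 0.16), and in cells with 0 UMIs of DCN the E15 ratio was -0.09 (-0.22 to 0.05), both with intervals that took in 0. Other ratios lay further from 0, with E18 at -0.25 in cells with MYF5 and E23 at 0.28 with DCN at 0. With FAP markers under 1000 CPM the ratios were -0.11, -0.16 and 0.26 at E15, E18 and E23, each interval on 1 side of 0. By the share of cells with a PAX7 UMI, cycling cells were not lower at E15 (83.9% in both groups) or E18 (73.4% and 72.4%). That share was higher in cycling cells at E13 (53.5% and 49.3%) and E23 (75.6% and 66.7%). With 1 library per stage the difference between stages was not tested in either case.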

How the results depend on the processing

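Of 190 alternative log2 fold changes 160 kept their direction and their side of the threshold, 22 lost and 4 gained a call, and 4 changed sign. Without the library block, the changes from 0 to 1-2 MYOD1 UMIs were 0.66 (PAX7) and 0.93 (PAX3), from 0 to 1 MYOG UMI -0.32 and -0.56, and from 1 to 2+ MYOG UMIs -0.96 and -0.84, none called, while the FAP calls stayed. No paired analysis beyond this block was possible because the labels give 1 sample per stage. Calls without the block numbered 1 (MYOD1 1-2), 3 (MYOD1 3+), 7 (MYOG 1), 6 (MYOG 2+), 2210 (FAPs), 288 (cycling) and 1 (PAX3-positive), and the cause was not tested here or below. The alternatives that kept only cells with MYF5, or with FAP markers under 1000 CPM, and the second thinning were chosen after seeing the data. With MYF5, PAX7 and PAX3 stood at 0.13 and 0.27 (MYOD1 1-2), and PAX3 at -0.39 (MYOG 1) and -0.81 (MYOG 2+), all no longer called, and at 0.061 (cycling, sign changed), with 122 and 592 genes called for MYOD1 1-2 and MYOG 1. With few FAP markers PAX3 stood at -0.42 (MYOG 1, not called), and 620 (MYOD1 1-2) and 340 (MYOD1 3+) genes were called. With DCN at 0, PAX3 stood at -0.82 (MYOG 2+, not called), and 563 and 276 genes were called for the MYOD1 comparisons. Thinning before sorting gave PAX3 -0.44 (MYOG 1, not called) and calls of 3067, 2213, 1542 and 3573 for MYOD1 1-2, MYOG 1, MYOG 2+ and FAPs, and 6000 UMIs gave PAX3 0.0015 between cycling and other cells. PAX7 passed for MYOD1 3+ with DESeq2 (0.32) and without the filter (0.34), and in PAX3-positive cells without TMM (0.19) and at any MYOD1 count (0.36, with 523 calls). Without the filter 1128, 2010 and 429 genes were called for MYOD1 3+, MYOG 1 and PAX3-positive cells, and DESeq2 called 77 for the last. Leaving out each library gave PAX3 -0.19 to 0.10 (MYOD1 3+, above 0 without E15 or E18), PAX7 -0.39 to -0.30 and PAX3 -0.64 to -0.38 (MYOG 1), and PAX7 -1.21 to -0.83 and PAX3 -1.11 to -0.65 (MYOG 2+). Calls then ranged over 676 to 1174 (MYOD1 1-2), 254 to 431 (MYOD1 3+), 466 to 1543 (MYOG 1), 0 to 3364 (MYOG 2+, edgeR), 3555 to 4590 (FAPs), 1516 to 2046 (cycling) and 128 to 216 (PAX3-positive).

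The stage ratios kept their sign in 48 alternatives, 25 of which moved beyond counting error. For PAX7 over all kept cells, E15 over E13 was 1.5003 as a mean over cells, 1.45 with doublets kept, 1.45 over all barcodes and 1.60 at a fixed makeup of cell groups. E18 over E15 was -0.56, -0.67 (all barcodes), -0.55 (fixed makeup) and -0.58 (TMM), and E23 over E18 was 0.38, 0.53 (doublets kept), 0.53 (all barcodes), 0.43 (fixed makeup) and 0.28 (TMM). For PAX3, the mean over cells gave 0.98, -0.31 and -0.55, a fixed makeup 1.37 for E15 over E13 and TMM -0.68 for E23 over E18. The odds ratios of PAX3 and PAX7 among cells in no other class were 1.43, 0.884 and 0.963 at E13, E15 and E18 in cells with MYOD1 and no MYOG, 3.0001 and 3.02 at E15 and E18 at 6000 UMIs, 1.67 and 1.47 at E18 and E23 at 2000 UMIs and 2.74 at E15 with doublets kept. PAX3, at 1656 to 3192 UMIs per library, is the gene that depth limits.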
